A study of Mus musculus with 12 samples.

Results

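Fcgr1, Fcer1g, Ms4a6d, Ltf and Csf3r, genes of macrophages and neutrophils, were followed in the livers of mice without hemopexin, without haptoglobin or without both. They were taken as the measured spots that carry these names, and 5 of 5 genes had a measured clone, 1 clone each, among 918 named genes and 2151 clones with values. A clone was printed as 2 neighbouring spots, so the genes rest on 10 of 4167 measured spots. They were chosen by the symbol and by whether the spot held a value, with earlier results of these data known. Among these were the ratios of Fcgr1 and Fcer1g in the double null. Their adjusted p-values are therefore given as entries of a fit over all features and are not independent support.

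Adult mice of 4 genotypes were compared. Those called Hx-null lacked hemopexin (Hp+/Hx-/-), Hp-null lacked haptoglobin (Hp-/-Hx+/), HpHx-null lacked both (Hp-/-Hx-/-), and wild-type kept both (Hp+/Hx+/). All were littermates from doubly heterozygous F1 parents on the mixed C57/BLJ6 X 129Sv background. PBS-perfused livers of 5 or more mice per genotype were pooled. Each null pool shared 4 arrays of 2 colours with the wild-type pool, and replicates 3 and 4 carried the dyes the other way round. The 4 arrays of a genotype measured, as far as the labels say, 1 pair of pools, and all nulls share the wild-type pool. Each p-value therefore measures the spread between arrays, which may be technical, and not the spread between mice. In pooled tissue, fewer cells of a type and less RNA per cell cannot be told apart.

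Hemopexin carries free heme in plasma and haptoglobin carries free hemoglobin, and liver macrophages and hepatocytes take up these complexes. Resident macrophages of the liver, the Kupffer cells, also clear aged red cells and immune complexes. Fcgr1 encodes the high-affinity receptor for IgG, which binds the antibody, and Fcer1g encodes the common gamma chain, the signalling subunit with which this and other Fc receptors assemble. Ms4a6d encodes a membrane protein of the MS4A family found in macrophages. Ltf encodes lactoferrin, an iron-binding protein of the secondary granules of neutrophils, and Csf3r the receptor for G-CSF, the cytokine that drives neutrophil production.

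Gene names depend on an inferred, reversed numbering of the spots: the annotation of a spot is found at 31201 minus its number. Of 3476 pairs of different clones of 1 gene, 205 had both clones measured in this numbering and 63 in the direct one. All 7 clones of the 5 genes are without a value when the direct numbering is used. In the inferred numbering 5 of the 7 had values. A further clone of Ms4a6d and a further clone of Ltf had none, so no gene has a measured clone to check the other by.

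The label of macrophage and neutrophil genes could not be widened to a cell type. Of 29 marker genes of macrophages and Kupffer cells, 7 were in the annotation and 3 were measured, which were Fcgr1, Fcer1g and Ms4a6d themselves. The complement genes C1qa and C1qb, the lysozyme gene Lyz2 and the Fc receptor Fcgr3 were annotated and had no value. Of 26 neutrophil and granulocyte genes, 6 were annotated and 2 measured, Ltf and Csf3r, while S100a9, Lcn2, Cyba and Cybb had no value. No marker of T, NK or B cells, of endothelium or of bile duct was measured. Over the whole array 13.8% of clones held values, and a clone without a value has no level here.

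The arrays fell into sets that the labels do not give. The first component of 1160 clones measured on all 12 arrays, with the 5 genes left out, held 72.1% of the sum of squares. The sign of its loading split the arrays into set A and set B, of 6 arrays each and with 2 of every genotype in either. Arrays of 1 set correlated at 0.468 to 0.896 and arrays of different sets at -0.80 to -0.16. On 4 arrays the set was not the one the labelled dye would give (Hp-null replicates 1 and 3, HpHx-null replicates 2 and 4). Arrays of 1 labelled dye correlated at 0.834 to 0.845 in Hx-null but at -0.779 to -0.561 in Hp-null and -0.653 to -0.251 in HpHx-null. The direction of the ratios is therefore not settled. Values below are log2 ratios as deposited after each array's median was set to 0, so that positive stands for more RNA in the null only if null over wild-type is what was deposited. They were fitted in limma with a term for the labelled dye and, beside it, with a term for the array set. The set was drawn from these same arrays, with the 5 genes left out, so p-values that use it are not independent support. A value passed when its p, adjusted over all features tested, was under 0.05. Each comparison was also read with the sign of set B turned; turning set A instead gives the same sizes with opposite signs.

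**Figure D1:**
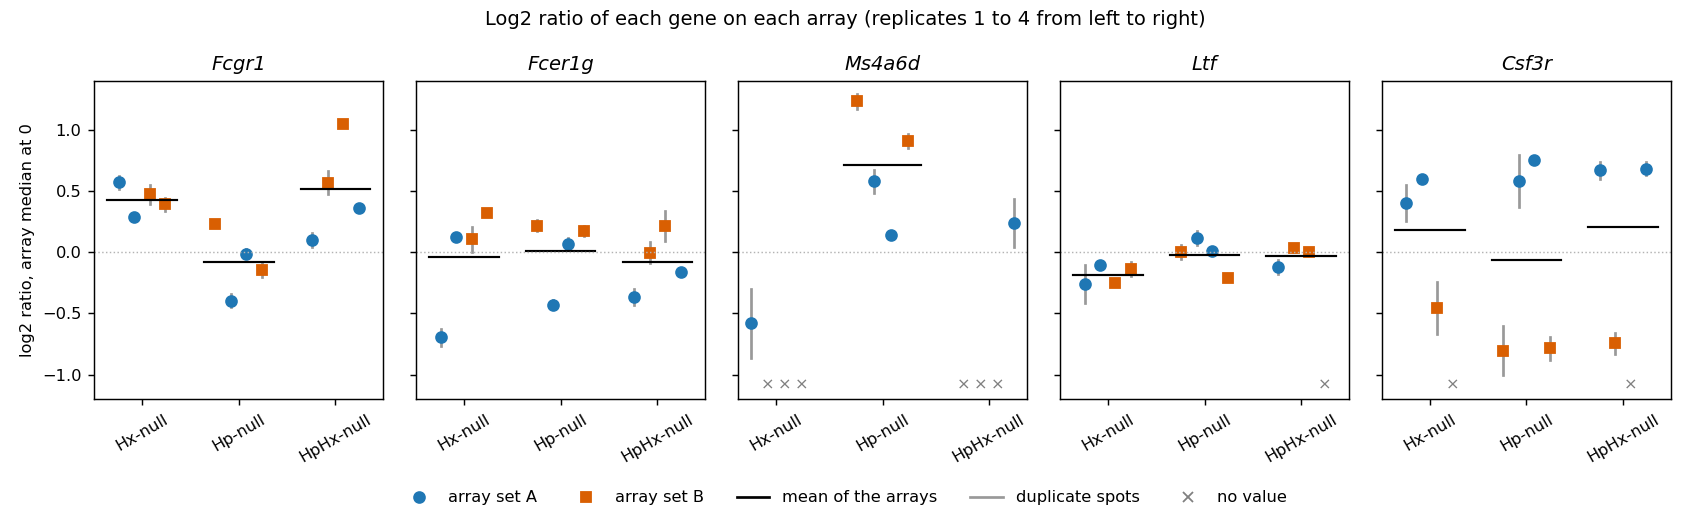
Log2 ratio (vertical axis, array median at 0) of each gene on each array, by genotype, with replicates 1 to 4 from left to right. Circles are arrays of set A and squares of set B, grey lines join the duplicate spots, black lines are means and crosses mark arrays without a value. Fcgr1 is above 0 on the 4 arrays of Hx-null and of HpHx-null, and Csf3r is above 0 on every array of set A and below 0 on every array of set B that measured it.

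Fcgr1, the antibody-binding chain, had positive ratios on all arrays of Hx-null and HpHx-null and a mean near 0 in Hp-null. In Hx-null its log2 ratio was 0.57, 0.29, 0.47 and 0.39 on replicates 1 to 4. In Hp-null it was 0.23, -0.40, -0.01 and -0.15, and in HpHx-null 0.10, 0.57, 1.05 and 0.36. The lowest Hx-null array stood at 0.29 and the highest Hp-null array at 0.23. How many features keep Hx-null and Hp-null apart in this way was not counted, so the gap cannot be called particular to Fcgr1. HpHx-null overlapped both nulls, with its replicate 3 alone above 1. Between Hp-null and Hx-null 0.595% of all features passed in limma with the labelled dye, and Fcgr1 did not. An unadjusted p under 0.05 was reached there by 1.73% of all features, and by 14.7% with the array set, Fcgr1 among them both times. Duplicate spots of Fcgr1 differed by a median of 0.11.

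The mean log2 ratio of Fcgr1 was 0.43 ± 0.12 (SD, n = 4 arrays) in Hx-null, a 1.35-fold size if the logarithm is of base 2 (assumed throughout), -0.08 ± 0.26 (SD, n = 4 arrays) in Hp-null and 0.52 ± 0.40 (SD, n = 4 arrays) in HpHx-null, a 1.43-fold size. With the labelled dye in limma none of the 3 passed an adjusted p under 0.05. The value for HpHx-null had an SE of 0.15 (adjusted p = 0.284) and that for Hx-null an SE of 0.15 (adjusted p = 0.799). With the array set in its place the HpHx-null ratio passed (SE 0.11, limma adjusted p = 0.0151), where 5.38% of all features did. The Hx-null ratio did not pass (SE 0.11, limma adjusted p = 0.0635). The HpHx-null call was lost without replicate 3 of HpHx-null, at 0.37 (limma adjusted p = 0.109), and without replicate 4, at 0.53 (limma adjusted p = 0.0647). Without replicate 3 of HpHx-null the ratio in Hx-null passed instead (limma adjusted p = 0.0199). Among all features tested, Fcgr1 stood at percentile 96.0 for Hx-null, 34.2 for Hp-null and 94.4 for HpHx-null by the fit with the array set, and at 52.7, 38.5 and 14.4 with set B turned in sign.

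Over all 12 arrays Fcgr1 was little tied to the split between the array sets, but in HpHx-null its set means stood apart. In Hx-null it averaged 0.43 in set A and 0.43 in set B. In Hp-null the set means were -0.20 and 0.04, and in HpHx-null 0.23 and 0.81. Set A minus set B was -0.58 in HpHx-null and -0.275 over all 12 arrays. The median size of that difference over features with at least 10 arrays was 0.47. Over 12 arrays the set accounted for 14.5% of its variance, against a median of 65.7% over 1664 features with at least 10 arrays. Read with set B turned in sign, Fcgr1 was at -0.002, -0.12 and -0.29 for the same nulls, and none of these passed in limma (adjusted p = 0.992, 0.529 and 0.170).

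Fcer1g, the signalling partner of Fcgr1, had a mean near 0 in each null. Its log2 ratio was -0.70, 0.12, 0.10 and 0.32 in Hx-null, 0.22, -0.43, 0.07 and 0.18 in Hp-null, and -0.37, -0.004, 0.22 and -0.16 in HpHx-null, on replicates 1 to 4. The 3 genotypes overlapped, and the lowest array was replicate 1 of Hx-null. The means were -0.04 ± 0.45, 0.01 ± 0.30 and -0.08 ± 0.25 (SD, n = 4 arrays each), with SEs of 0.15 to 0.16 in the fit with the labelled dye (limma adjusted p = 0.999 or above) and 0.12 with the array set (limma adjusted p = 0.899 to 0.983). With set B turned in sign Fcer1g was at -0.25, -0.19 and -0.18, and none of these passed (limma adjusted p = 0.090, 0.171 and 0.210).

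The difference between receptor and chain was taken within each array, where the centring of the array has no part. Fcgr1 minus Fcer1g was 0.60 ± 0.16 (SD, n = 4 arrays) in HpHx-null, from 0.47 to 0.83 and positive on 4 of 4 arrays. It was 0.47 ± 0.55 in Hx-null, also positive on 4 of 4, but replicate 1 stood at 1.27 and the other three between 0.07 and 0.37. In Hp-null it was -0.09 ± 0.16, positive on 2 of 4 arrays. As deposited, the Hp-null arrays ranged from -0.32 to 0.03, below the range of HpHx-null. How many pairs of genes keep these nulls apart in this way was not counted, so the gap cannot be called particular to this pair. This difference between a pair of genes is a description and was not tested. The values of both genes in HpHx-null were known when the genes were chosen. The difference with set B turned in sign was 0.25 ± 0.71 for Hx-null, 0.07 ± 0.18 for Hp-null and -0.10 ± 0.70 for HpHx-null (SD, n = 4 arrays each), and the nulls overlapped.

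**Figure D2:**
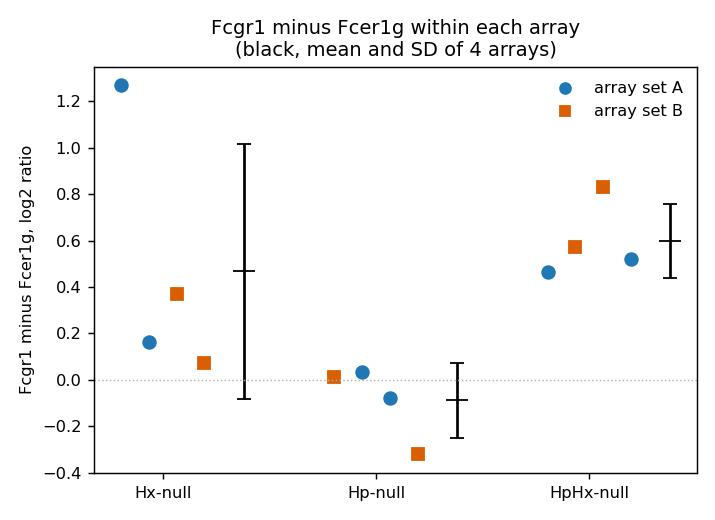
Difference in log2 ratio between Fcgr1 and Fcer1g on each array (vertical axis), by genotype, with circles for set A, squares for set B and black marks for the mean and SD of 4 arrays. HpHx-null lies between 0.47 and 0.83, Hp-null between -0.32 and 0.03, and Hx-null is wide, with 1 array at 1.27.

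Ms4a6d, the MS4A family member, had positive ratios on all arrays of Hp-null and was hardly measured elsewhere. In Hp-null its log2 ratio was 1.23, 0.58, 0.14 and 0.91 on replicates 1 to 4. Hx-null had a value on replicate 1 alone, -0.58, and HpHx-null on replicate 4 alone, 0.24. The duplicate spots of those single values differed by 0.57 and 0.40, against 0.01 to 0.19 on the Hp-null arrays. Such a pattern, all 4 arrays of Hp-null and at most 1 of each other null, was shared by 18 of 2052 features.

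The mean of Ms4a6d in Hp-null was 0.72 ± 0.47 (SD, n = 4 arrays), a 1.64-fold size. It stood at percentile 99.8 of the features tested, and at 10.6 with set B turned in sign. The ratio did not pass with the labelled dye (SE 0.21, limma adjusted p = 0.999). It passed with the array set (SE 0.11, limma adjusted p = 0.0186), where 2.78% of all features did. The latter was lost without replicate 1 of Hp-null, at 0.64 (limma adjusted p = 0.0965), and without replicate 2, at 0.61 (limma adjusted p = 0.131). The ratio depended on the set: the 2 arrays of set B averaged 1.07 and the 2 of set A 0.36. With set B turned in sign the value was -0.36 and passed as well (limma adjusted p = 0.0219), where 59.8% of all features did. The direction of this ratio therefore follows from the reading chosen. With the arrays turned by the labelled dye it was 0.19 and did not pass (limma adjusted p = 1.0). Hx-null and HpHx-null were not tested for this gene, whose spread comes from the 4 Hp-null arrays.

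Ltf, the granule protein lactoferrin, had the narrowest range of the 5 genes. Its log2 ratio was -0.26, -0.11, -0.25 and -0.14 in Hx-null, 0.002, 0.12, 0.01 and -0.21 in Hp-null, and -0.12, 0.04 and -0.002 on replicates 1 to 3 of HpHx-null. All 4 Hx-null arrays were negative and lay below 3 of the 4 Hp-null arrays. The mean was -0.19 ± 0.08 (SD, n = 4 arrays) in Hx-null, -0.02 ± 0.14 (SD, n = 4 arrays) in Hp-null and -0.03 ± 0.08 (SD, n = 3 arrays) in HpHx-null. None passed in limma; the Hx-null value came nearest, with an adjusted p of 1.0 with the labelled dye (unadjusted p = 0.0592) and 0.235 with the array set (unadjusted p = 0.0222). The fit left out replicate 4 of HpHx-null, which had no value. The array set accounted for 0.895% of its variance. With set B turned in sign the Hx-null mean was 0.01.

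Csf3r, the G-CSF receptor, followed the array sets almost wholly. On set A its log2 ratio was 0.40 and 0.60 in Hx-null, 0.58 and 0.75 in Hp-null and 0.67 and 0.68 in HpHx-null. On set B it was -0.46 in Hx-null, -0.80 and -0.79 in Hp-null and -0.75 in HpHx-null. Replicate 4 of Hx-null and replicate 3 of HpHx-null, the arrays with the fewest values of their genotypes, had none and are absent from every fit of Csf3r. All 6 arrays of set A were positive and all 4 of set B negative, in every genotype. The set accounted for 96.5% of the variance of Csf3r, a share that 3.67% of the 1664 features exceeded.

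Averaged over the sets, Csf3r was near 0: in the fit with the array set its log2 ratio was -0.04 (SE 0.10) in Hx-null, -0.06 (SE 0.09) in Hp-null and -0.02 (SE 0.10) in HpHx-null (limma adjusted p = 0.912, 0.721 and 0.970). Fitted with the labelled dye, the ratios had SEs of 0.37 to 0.44 and none passed (limma adjusted p = 0.999 or above). With set B turned in sign the ratios became 0.50 (SE 0.08), 0.73 (SE 0.07) and 0.71 (SE 0.08), and all 3 passed (limma adjusted p = 0.000526, 6.7e-06 and 6.01e-05). In that reading 49.4%, 59.8% and 44.7% of all features passed in the 3 nulls, so calls of Csf3r are common background there. With the arrays turned by the labelled dye Csf3r was 0.46, -0.05 and -0.28 in Hx-null, Hp-null and HpHx-null. The SEs were 0.335 to 0.394, and none of these passed (limma adjusted p = 0.440 or above). Which reading holds was not tested.

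**Figure D3:**
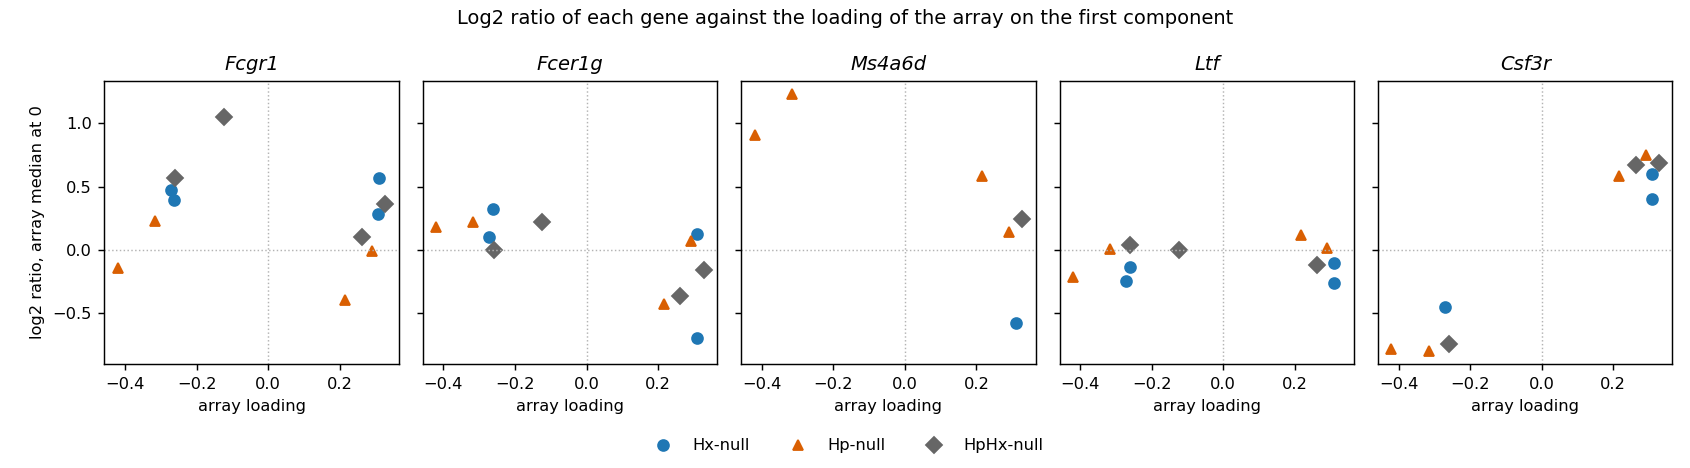
Log2 ratio of each gene (vertical axis, array median at 0) against the loading of the array on the first component (horizontal axis, no unit), with circles for Hx-null, triangles for Hp-null and diamonds for HpHx-null. Csf3r rises with the loading (r = 0.977 over 10 arrays), Fcer1g falls (r = -0.655 over 12), and Fcgr1 and Ltf are scattered (r = -0.173 over 12 and 0.122 over 11).

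Set beside all features, the genes gave few calls. With the labelled dye in limma 0 of 4 tested genes passed in Hx-null, where 0.643% of features did, 0 of 5 in Hp-null (0% of features) and 0 of 4 in HpHx-null (0% of features). The unmoderated test also called none of the 5. In each comparison 1 gene had an unadjusted p under 0.05, as had 3.75%, 2.43% and 5.79% of all features. These were Fcgr1 in Hx-null and HpHx-null and Ms4a6d in Hp-null. With the array set 0 of 4 passed in Hx-null (2.09% of features), 1 of 5 in Hp-null (2.78%), Ms4a6d, and 1 of 4 in HpHx-null (5.38%), Fcgr1. There 2 of 4, 1 of 5 and 1 of 4 genes had an unadjusted p under 0.05, as had 13.5%, 19.1% and 13.2% of all features. The median log2 ratio of the genes with the array set was -0.04, -0.02 and -0.02 over the 3 nulls, beside -0.02, -0.01 and -0.03 over all features. The medians of the genes with the labelled dye were 0.07, -0.02 and 0.08.

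**Figure D4:**
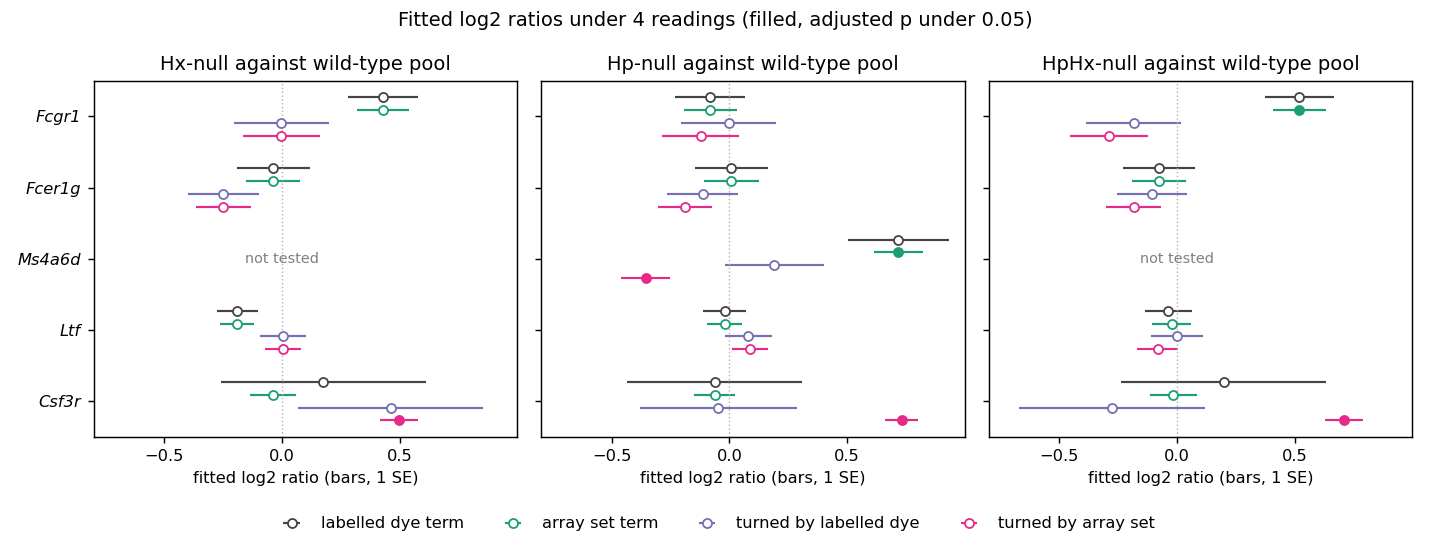
Fitted log2 ratio (horizontal axis) of each gene against the wild-type pool under 4 readings, with bars of 1 SE and filled points where the adjusted p is under 0.05. Filled points are Ms4a6d in Hp-null and Fcgr1 in HpHx-null with the array set, and Ms4a6d in Hp-null and Csf3r in all 3 nulls with set B turned in sign. With set B turned in sign 44.7% to 59.8% of all features passed. Ms4a6d was tested in Hp-null alone.

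Between the nulls, which share the wild-type pool, no gene passed. Fcgr1 was 0.60 higher in signed ratio in HpHx-null than in Hp-null, with an SE of 0.21 and an adjusted p of 0.997 with the labelled dye and an SE of 0.16 and an adjusted p of 0.182 with the array set (limma). It was -0.51 in Hp-null against Hx-null (SE 0.21 and limma adjusted p = 0.997 with the labelled dye, SE 0.16 and 0.183 with the array set) and 0.09 in HpHx-null against Hx-null. As deposited, Fcgr1 was thus highest in HpHx-null and lowest in Hp-null, and no pair of nulls differed beyond the test. When arrays were turned by labelled dye, HpHx-null against Hp-null was -0.18 and Hp-null against Hx-null -0.00055. Turned by array set these were -0.17 and -0.12, and HpHx-null against Hx-null was -0.29, so that HpHx-null came lowest and Hx-null highest. None of the turned differences passed (limma adjusted p = 0.673 to 1.0). Ltf was 0.17 in Hp-null against Hx-null (limma adjusted p = 0.997 with the labelled dye and 0.482 with the array set). With the labelled dye, 0.595% of features passed in Hp-null against Hx-null and 0% in the other 2 comparisons; with the array set these were 1.14%, 0.181% in HpHx-null against Hx-null and 0% in HpHx-null against Hp-null. In these 3 comparisons 1, 0 and 1 of 4 genes had an unadjusted p under 0.05 with either term, Fcgr1 each time. Of all features 1.73%, 0.967% and 2.19% did in the same comparisons with the labelled dye, and 14.7%, 5.56% and 12.4% with the array set.

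The pathways of the 5 genes were thinly measured. Of 34 genes of Fc receptor and ITAM signalling, 15 were annotated and only Fcgr1 and Fcer1g measured; the phospholipase Plcg2, the phosphatase Ptpn6 and the adaptors Blnk and Lcp2 had no value. Of 16 MS4A genes Ms4a6d alone was annotated. Of 22 genes of G-CSF and cytokine receptor signalling 6 were annotated and Csf3r alone measured, while Jak1, Jak2, Stat3, Socs3 and Il6st had no value.

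Lactoferrin belongs to the transferrin family, and of 14 genes of that family and of iron binding 4 were measured. With the array set 0 of 4 passed in Hx-null, 1 negative in Hp-null and 1 negative in HpHx-null, both times the ferritin light chain Ftl1 (-0.94 and -0.38), where 2.09%, 2.78% and 5.38% of all features passed. Ftl1 was positive in every null with set B turned in sign (0.62, 0.57 and 0.54). The ferritin heavy chain Fth1 was at -0.21, -0.33 and -0.19 in Hx-null, Hp-null and HpHx-null and did not pass, and the transferrin receptor Tfrc was at 0.01, -0.02 and -0.12. Ltf was at -0.19, -0.02 and -0.02 in the same fit. None of the 4 passed with the labelled dye in any null. With set B turned in sign Ftl1 passed in every null. Fth1 (0.27) and Tfrc (-0.22) then passed in Hp-null alone (limma adjusted p = 0.033 and 0.0304), where 59.8% of all features did.

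Interferon gamma raises Fcgr1 in macrophages, and of 22 genes inducible by it 3 were measured. Beside Fcgr1 these were Ifi30, a lysosomal thiol reductase, at -0.02, 0.08 and -0.09 in Hx-null, Hp-null and HpHx-null, and B2m, the light chain of class I histocompatibility molecules, at -0.43 in Hx-null and 0.23 in Hp-null with the array set. In that fit neither passed in any null tested, and B2m was not tested in HpHx-null. Fcgr1 in HpHx-null was the single call of this list there, where 5.38% of all features passed. With set B turned in sign, Ifi30 was at -0.472, -0.235 and -0.383. It passed in all 3 nulls (limma adjusted p = 0.000331, 0.0204 and 0.00163), where 49.4%, 59.8% and 44.7% of all features did. Fcgr1, and B2m where tested, did not pass in that reading. Hebp1, a heme-binding protein and the measured gene among 10 of heme and hemoglobin uptake, was at 0.37, 0.45 and 0.73 and passed in HpHx-null with the array set (limma adjusted p = 0.0130), where 5.38% of all features did. It did not pass with the labelled dye (limma adjusted p = 0.509), and with set B turned in sign it was 0.17 there. Turned in this way Hebp1 was 0.46 in Hp-null and passed (limma adjusted p = 0.0266), where 59.8% of all features did. The hemoglobin receptor Cd163 was not in the annotation, and Lrp1, the hemopexin receptor, was annotated and had no value.

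Hepatocyte genes, read as deposited, had their median on the same side of 0 as Fcgr1 in each null, though not every gene did. Of 22 hepatocyte genes 6 were measured, and with the array set their median was 0.35 for Hx-null, -0.09 for Hp-null and 0.42 for HpHx-null. Positive values were found for 5 of 6, 2 of 6 and 6 of 6. Apoa1 was negative in Hx-null (-0.05), and Serpina1e and Bhmt were positive in Hp-null (0.53 and 0.18). Calls were positive for Bhmt in Hx-null (0.66), negative for Ttr in Hp-null (-0.56), and positive for Serpina1e, Mat1a and Bhmt in HpHx-null (1.37, 0.57 and 0.42), beside 2.09%, 2.78% and 5.38% of all features. None of the 6 passed with the labelled dye in any null. With the array set the median of all features was -0.02, -0.01 and -0.03. All 6 were positive in every null with set B turned in sign, with medians of 0.985, 0.861 and 0.755. The median of all features was then -0.03 in each null. In that reading 5, 5 and 4 of the 6 passed in limma, beside 49.4%, 59.8% and 44.7% of all features. Fcgr1 was then at -0.002, -0.12 and -0.29. As deposited Fcgr1 was at 0.43, -0.08 and 0.52, in the order of the hepatocyte medians, and the part of these genes in its ratio was not tested. The stromal gene Lum, the single measured gene of 10 of stellate cells and fibroblasts, was at -0.03, 0.21 and 0.06 and did not pass. With set B turned in sign Lum was at -0.23, -0.31 and -0.12. It then passed in Hx-null and Hp-null (limma adjusted p = 0.0497 and 0.0101), where 49.4% and 59.8% of all features did. Of 16 erythroid genes 6 were annotated and Tfrc alone measured.

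Correlations among the 5 genes over the arrays were of both signs and changed with the set means. Fcgr1 and Fcer1g correlated at 0.20 over 12 arrays, and at -0.09 once the mean of each array set was taken out. Fcer1g and Csf3r correlated at -0.54 over 10 arrays and at 0.44 without the set means. Ltf and Csf3r, both of neutrophils, correlated at 0.13 over 9 arrays and 0.01 without the set means. Ms4a6d could be set against the others over 5 or 6 arrays, 4 of them of Hp-null. It correlated with Fcer1g at 0.78 (0.50 without the set means), with Csf3r at -0.72 (0.61), with Fcgr1 at -0.52 (-0.68) and with Ltf at 0.41 (0.97). These arrays share pools, dyes and sets, so the correlations are descriptions.

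Among named genes, those most like Fcgr1 over the arrays were Ppia, a cyclophilin (r = 0.874 over 12 arrays), Wdr7 (0.826 over 10) and Atp6v1e1, a subunit of the vacuolar proton pump (0.794 over 12). With the set means taken out they were Pafah1b1 (0.971 over 12), the plasma selenoprotein gene Selenop (0.944 over 12) and Ttr, transthyretin (0.913 over 11). Of 772 genes compared with Fcgr1, 4 reached 0.9 in that form and 0 on the centred values. For Csf3r the nearest were Ttc9c (0.992), Vcp (0.988) and Oaz2 (0.987), each over 10 arrays, and 91 of 662 genes reached 0.9 on the centred values but 0 with the set means taken out, where Snx19 (0.857), Mtarc2 (0.851) and Slc39a14 (0.85) led.

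Fcer1g was most like 8030474K03Rik (0.955 over 12 arrays), Ndufb7 (0.934 over 12) and Spcs2 (0.93 over 11) on the centred values, and like Espl1 (0.951 over 10), Zfat (0.936 over 12) and again Ndufb7 (0.932 over 12) without the set means. Ltf had no close match, with Taf1d (0.70), Wdr83os (0.698) and Uqcrc2 (0.69) over 10 arrays each, and Smap1 (0.834 over 10), Sigirr (0.806 over 11) and B3gntl1 (0.749 over 11) without the set means. Ms4a6d could be compared over 6 arrays, where 52 of 745 genes reached 0.9, led by Homer1 (0.995), Rbm39 (0.987) and Fancd2 (0.975), and without the set means by Arap1 (0.997), Homer1 (0.993) and Rbm39 (0.984).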

How the data were processed

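The log2 ratios of 12 cDNA arrays with 2 colours were used as the authors deposited them. Their log base, normalization, spot filter and direction were not given in the sources used here, so base 2 is an assumption. Array medians were -0.20 to 0.22 before centring, and 3009 to 4165 of 31200 spots per array held a value; the number of arrays limits the precision. Arrays were centred on their median, duplicate spots averaged, and clones of 1 gene averaged. Symbols came from the platform annotation through Entrez numbers (RefSeq, GRCm38.p6), where 0 symbols changed; no coordinates or sequences are given. Limma 3.58.1 (lmFit, robust eBayes, Benjamini-Hochberg) took all 12 arrays in 1 fit, with a coefficient for each genotype and a term for the labelled dye of each feature. A feature needed 3 of 4 arrays of each genotype compared, or 2 with an array left out. The code was tested on simulated data. Same-numbered arrays of different genotypes deviated together at correlations of -0.87 to 0.87. These were positive for arrays of the same set and negative for arrays of different sets. The sets were not taken out first, so the correlations cannot show whether the numbers pair arrays. Named genes are the 5 genes, measured genes of 14 lists, and the 3 genes most correlated with each over at least 10 shared arrays (or all its arrays). Members and lists were chosen with earlier results of these data known; alternatives with the array set term other than that term itself were added after the data were seen.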

Additional observations from a re-analysis of the deposited data

How the results depend on the processing

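With the labelled dye, the 12 calls in Hx-null became 39 with the array set term, 922 with arrays turned by set, 0 turned by the labelled dyes, 0 with the replicate block, 7 as deposited, 6 with quantile scaling, 0 on features with all 12 arrays and 133 on the arrays of that genotype alone, and ranged from 0 to 13 with an array left out. The replicate block also left 0 of the 11 calls of Hp-null against Hx-null; 3 of 12 arrays correlated best with their own number. Those 11 became 21 with the array set term, 6 with scaling by the median absolute deviation, and 0 when turned by the labelled dyes or by set, as deposited, with quantile scaling, on features with all 12 arrays, with the unmoderated test or on the arrays compared alone, and 0 to 9 with an array left out. The 0 calls in Hp-null (49 features at an unadjusted p under 0.05) became 56 with the array set term and 1207 turned by set; those in HpHx-null (99 at an unadjusted p under 0.05) 92 and 765, 7 without a dye term, 7 on features with all 12 arrays and 0 to 2 with an array left out; those of HpHx-null against Hx-null (16 at an unadjusted p under 0.05) 3 with the array set term.

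With the array set term, Hx-null had 82 calls as deposited, 59 with quantile scaling, 19 unmoderated, 133 on its arrays alone and 24 to 87 with an array left out, against 39. Hp-null had 35 with quantile scaling, 5 unmoderated and 8 to 106 with an array left out, against 56; HpHx-null 0 unmoderated, 40 on its arrays alone and 33 to 97, against 92. Hp-null against Hx-null had 12 unmoderated and 16 to 71, against 21; HpHx-null against Hx-null 7 as deposited, 0 with quantile scaling, 0 unmoderated, 1 on the arrays compared alone and 0 to 5, against 3; HpHx-null against Hp-null 0 to 6, against 0.

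Fcgr1 in Hx-null was -0.002 turned by the labelled dyes or by set, and passed at 0.43 on the Hx-null arrays alone (adjusted p = 0.00645); with the array set term it passed at 0.43 as deposited and at 0.48 with quantile scaling, and ranged from 0.33 to 0.50 with an array left out. In HpHx-null it was -0.19 turned by the labelled dyes and -0.29 by set. With the array set term its 0.52 did not pass unmoderated (adjusted p = 0.108) or on the HpHx-null arrays alone (0.0627), and it ranged from 0.37 to 0.63 with an array left out, passing in 10 of 12. Ms4a6d in Hp-null reversed to -0.36 turned by set, was 0.19 turned by the labelled dyes, did not pass unmoderated at 0.72 with the array set term (adjusted p = 0.263), and ranged from 0.61 to 0.83, passing in 10 of 12. Ltf in Hx-null was 0.01 in both turned readings, and Ltf in HpHx-null ranged from -0.06 to 0.06 with the array set term. Csf3r turned by set was 0.50 in Hx-null, reversed to 0.73 in Hp-null and was 0.71 in HpHx-null. The causes were not tested. Fcer1g did not pass under any of these alternatives in any null. With the labelled dye, a filter of at least 2 of 4 arrays, eBayes without the robust option and clones kept apart moved no count beyond 1.5 times and gave no call of the 5 genes. With the array set term, of these the filter alone was run. It moved no count beyond 1.5 times and kept the calls of Fcgr1 in HpHx-null and Ms4a6d in Hp-null. With the direct numbering no gene of the 5 had a value.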
